A study of Homo sapiens with 4 samples.

Results

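The genes described here are those of the long intergenic noncoding RNA (LINC) naming series that were expressed in VCaP cells. They were chosen by a symbol that starts with LINC in GENCODE 29 and by a total of at least 100 reads on the main strand, summed over all 4 count tables of the study. Of 1891 LINC symbols in GENCODE 29, 1864 were matched in the tables by Ensembl number without version, and 38 met the rule, out of 60308 gene identifiers in all. A further 409 LINC genes had between 1 and 99 reads and 1417 had no read (0). GENCODE 29 classes 22 of the 38 as lincRNA, 8 as processed transcript, 3 as antisense and 1 as bidirectional promoter lncRNA. The others, LINC02210, LINC00674, LINC00680 and LINC00888, are classed as transcribed pseudogenes. VCaP cells, an established human line from a metastasis of prostate cancer, carry a TMPRSS2-ERG fusion. The cells carried one of 2 siRNA treatments in serum-containing medium, namely an siRNA against ZBTB7A (siZBTB7A) or a non-targeting control siRNA (siNTC), with 2 tables numbered 1 and 2 in each group. ZBTB7A is a zinc finger transcription factor known mainly as a repressor, and the study asked which genes respond to its knockdown. The labels name no clone, culture or time after transfection.

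A LINC symbol is a placeholder given to a long noncoding RNA gene that lies between coding genes and has no name for a function yet. Such RNAs are made by RNA polymerase II, are often spliced and polyadenylated, and are as a rule less abundant and more restricted to a tissue than messenger RNAs. A few are known to act on the gene beside them, on chromatin complexes or on microRNAs, and some have turned out to encode small proteins. For a majority no function is established.

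The 4 tables held between 5556061 and 5927656 gene reads each on the main strand. The 2 tables of a group differed by no more than read sampling (chi-square per degree of freedom 0.995 in siZBTB7A over 12645 genes and 0.993 in siNTC over 12762 genes), against 3.503 to 3.644 between tables of different groups. The 2 tables of a group were therefore counted as 1 library, so every comparison below is between 2 libraries, has no replicate check, and its p-values measure counting error and not the spread between cultures. ZBTB7A itself had 70 and 74 reads in the siZBTB7A tables and 90 and 115 reads in the siNTC tables. Its fold was 0.743 (95% counting interval 0.596 to 0.924), and it was not called lower (edgeR adjusted p = 0.0969). The knockdown was therefore not called in these counts, and the reason was not tested. All 11 markers of luminal prostate cancer cells were detected, with at least 1187 summed reads each, and the 4 leukocyte markers together had 23 reads in siZBTB7A and 18 in siNTC. The fibroblast markers had 159 reads in siZBTB7A and 193 in siNTC, 322 of them from LUM, with COL1A2 at 0 in both.

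Promoter sequences are shown for 4 members: those that were called different between the libraries (LINC02593, LINC00665 and LINC00294) and the most abundant one (LINC01578, which RefSeq lists as CHASERR). Each run is the first RefSeq promoter listed for the gene on GRCh38.p14, from 250 bases before to 50 bases after the annotated start, 5′ to 3′ on the strand of the gene, which is a different build from the one named for the count tables. Capitals mark GACCC or its reverse complement GGGTC, letters searched on both strands as a candidate core for ZBTB7A.
LINC02593, chr1:919643-919942, minus strand: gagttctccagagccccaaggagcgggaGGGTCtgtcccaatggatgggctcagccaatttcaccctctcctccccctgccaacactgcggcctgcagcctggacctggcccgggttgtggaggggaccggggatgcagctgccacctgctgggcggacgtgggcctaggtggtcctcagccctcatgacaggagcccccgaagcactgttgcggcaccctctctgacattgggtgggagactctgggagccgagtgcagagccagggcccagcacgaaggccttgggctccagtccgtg
LINC00665, chr19:36331669-36331968, minus strand: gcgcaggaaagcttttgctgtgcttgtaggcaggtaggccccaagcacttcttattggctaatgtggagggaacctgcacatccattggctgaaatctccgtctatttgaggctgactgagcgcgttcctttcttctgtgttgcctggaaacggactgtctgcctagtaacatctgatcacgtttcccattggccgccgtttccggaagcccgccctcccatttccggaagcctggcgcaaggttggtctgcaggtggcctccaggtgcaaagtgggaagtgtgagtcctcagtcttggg
LINC00294, chr11:33075900-33076199, plus strand: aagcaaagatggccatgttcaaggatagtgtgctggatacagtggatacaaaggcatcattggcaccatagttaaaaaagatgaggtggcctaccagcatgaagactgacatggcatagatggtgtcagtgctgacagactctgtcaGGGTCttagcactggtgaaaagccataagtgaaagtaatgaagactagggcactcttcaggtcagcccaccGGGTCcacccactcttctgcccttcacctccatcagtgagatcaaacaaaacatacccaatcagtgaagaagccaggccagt
LINC01578, chr15:92882593-92882892, plus strand: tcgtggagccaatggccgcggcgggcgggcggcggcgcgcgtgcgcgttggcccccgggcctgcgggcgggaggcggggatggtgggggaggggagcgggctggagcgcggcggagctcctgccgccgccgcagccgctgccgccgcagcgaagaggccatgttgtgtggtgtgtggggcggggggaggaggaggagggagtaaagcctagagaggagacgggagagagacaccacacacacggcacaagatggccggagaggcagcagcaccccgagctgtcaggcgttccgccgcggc

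The 4 promoters differed widely in composition. That of LINC01578 had 74.7% GC and 36 CpG dinucleotides, that of LINC02593 66.7% GC and 11, that of LINC00665 55.3% GC and 12, and that of LINC00294 48.0% GC and 1 CpG, where the median over all 35116 RefSeq promoters of the same length was 58.7% GC and 14 CpGs. GACCC was found 2 times in the LINC00294 window and 1 time in that of LINC02593, and 0 times in those of LINC00665 and LINC01578, so members called in opposite directions both held the letters. A RefSeq promoter was matched for 29 of the 38 members. GACCC or its complement was present in 12 of these 29 and in 47.6% of all promoters. AGAACA, one arm of an androgen response element, or its complement TGTTCT was present in 1 of the 29 (LINC00641) and in 14.8% of all promoters. GGAAGT, a core of sites for ETS factors such as ERG, or its complement ACTTCC was present in 6 of the 29, LINC00665 among them, and in 22.8% of all. None of these motifs contains another, and a match is a description of the sequence only.

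The expressed LINC genes were a small and uneven part of the transcriptome. Their summed reads amounted to 0.0555% of those of all genes under siZBTB7A (6270 reads, exact 95% interval 0.0541% to 0.0569%) and to 0.0543% under siNTC (6332 reads, 0.0530% to 0.0556%). Those intervals overlap. The 38 members held 74.8% of all reads of LINC genes, and LINC01578 and LINC00665 alone held 28.7% of the members' reads. The median member had 171 reads over all 4 tables, the lowest 105 and the highest 2082. Just inside the limit stood LINC02387 with 105, LINC01670 with 106, LINC00511 with 113, LINC00674 with 114, and LINC01311 and LINC00899 with 120 reads each, and just outside it LINC02035 with 94, LINC01572 with 88, LINC01012 with 86, LINC01006 with 84 and LINC01018 with 83 reads.

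**Figure D1:**
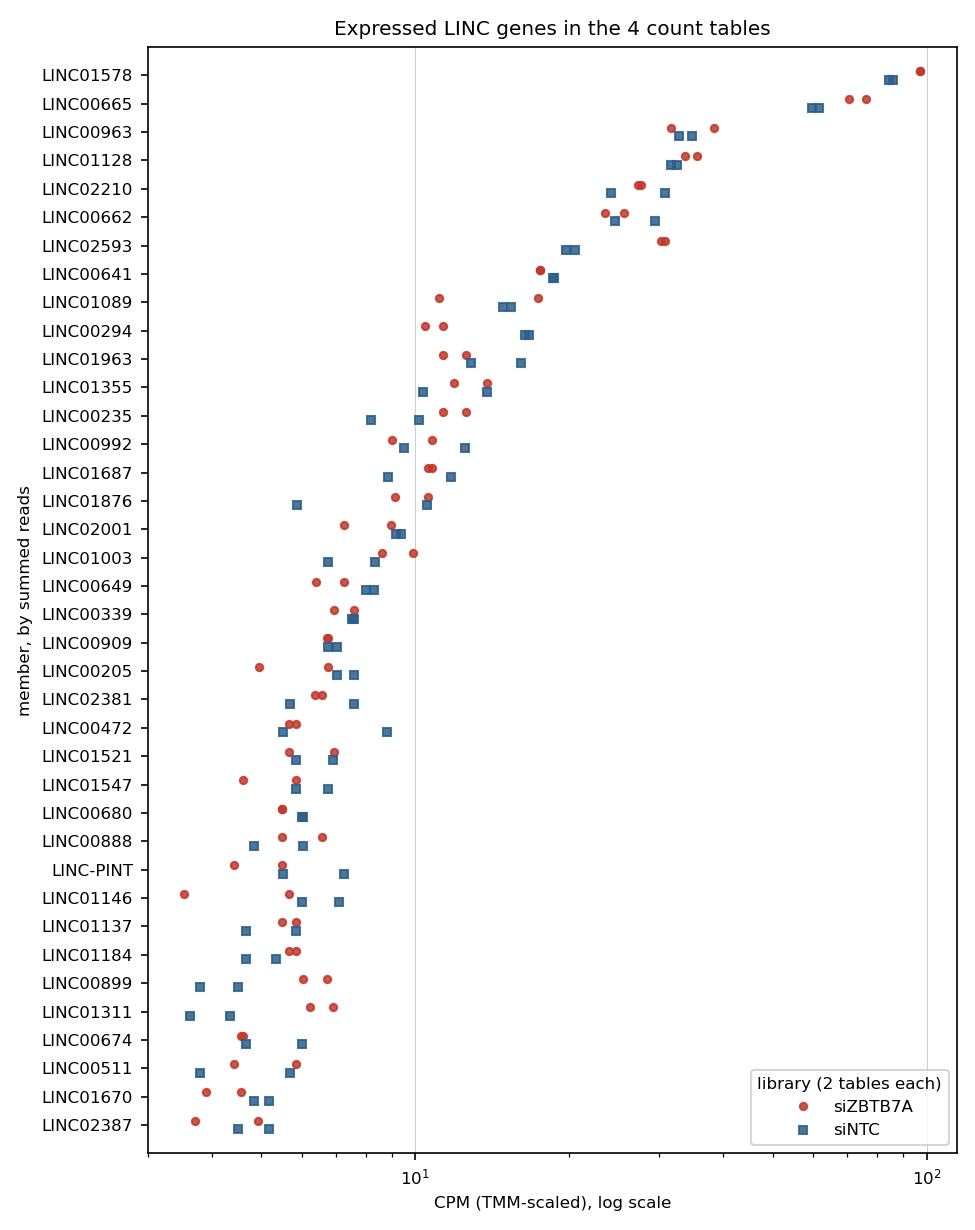
Level in CPM (main-strand reads scaled to the TMM-normalised library total, log axis) of the 38 expressed LINC genes, ordered down the page by their reads summed over the 4 tables; circles are the 2 siZBTB7A tables and squares the 2 siNTC tables. LINC01578 is at the top near 97 CPM in siZBTB7A and 85 CPM in siNTC, the circles of LINC02593 lie right of its squares and those of LINC00294 left of them.

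Of the 38 members, all of which passed the low-count filter, 2 were called higher (LINC02593 and LINC00665) and 1 lower (LINC00294) in the siZBTB7A library. That is 7.89% of the members, where the edgeR test called 4.97% of all 12848 tested genes, 2.25% as higher and 2.72% as lower. Among the 8960 tested genes whose summed reads lay within the members' range it called 3.20%. Among 98 other genes of class lincRNA, outside the LINC series and with at least 100 reads, it called 7.14% (2 higher and 5 lower). A gene is called where its edgeR quasi-likelihood p, adjusted by Benjamini-Hochberg over all tested genes, was under 0.05. With 3 members called, the share of members is known only roughly and no difference from these backgrounds was tested. DESeq2 called 0 members, with an adjusted p of 0.2595 for LINC00665 and none given for 36 members, LINC02593 and LINC00294 among them, and edgeR with an assumed replicate CV of 10% also called 0.

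The members as a group had no common direction. Their median fold was 0.978, with 16 above 1 and 22 below 1, against a median of 1.001 over all tested genes. The quartiles of the members were 0.861 and 1.10, and the other lincRNA genes had a median of 0.998 with quartiles of 0.882 and 1.0997. The siZBTB7A and siNTC tables did not overlap in 20 of the 38 members (52.6%), 9 with higher siZBTB7A values and 11 with lower ones, where 46.9% of all tested genes showed no overlap. With the reads of all members added up and scaled by TMM, the fold was 1.048 (1.012 to 1.085). Without LINC01578 and LINC00665 the same sum gave 1.003 (0.963 to 1.046), and these 2 abundant genes together stood at 1.17 (1.093 to 1.247). No other member was left out in this way, so whether these 2 alone carried the difference was not tested.

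**Figure D2:**
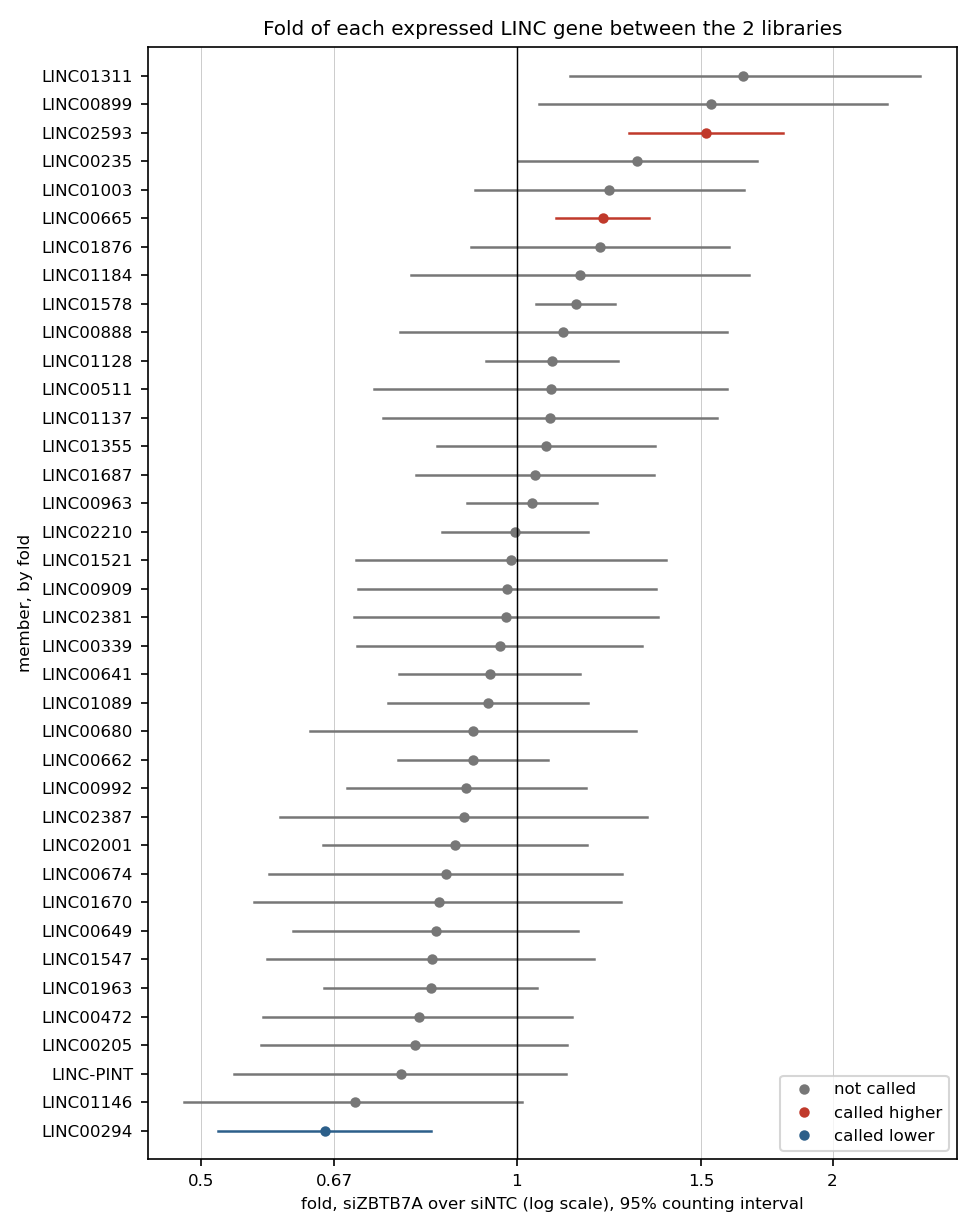
Fold of each of the 38 expressed LINC genes, siZBTB7A over siNTC, on a log axis, from the summed tables; lines are exact 95% counting intervals, and colours mark the genes called higher or lower by edgeR. LINC02593 and LINC00665 are called higher, LINC00294 is called lower, and 31 of the 38 intervals include 1.

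LINC02593 was the member with the smallest p. This gene, ENSG00000223764 on chromosome 1, has no role given here, and its longest GENCODE 29 transcript is a single exon of 61.7% GC. It had 168 and 171 reads in the siZBTB7A tables, against 114 and 123 reads in the siNTC tables. In CPM, reads scaled to the TMM-normalised library total, this was 30.7 and 30.3 CPM in siZBTB7A and 19.7 and 20.6 CPM in siNTC, so both siZBTB7A tables stood above both siNTC tables and the tables of each group were close together. The fold was 1.51 (1.28 to 1.795), with an edgeR adjusted p of 0.000235. Leaving out any 1 of the 4 tables, which lowers the depth and checks no replicate, gave a log2 fold of 0.56 to 0.63. The nearest coding gene, SAMD11, lies on the opposite strand and does not overlap it, and had 224 and 217 reads in siZBTB7A and 203 and 224 reads in siNTC, a fold of 1.09 (0.955 to 1.251) that was not called (edgeR adjusted p = 0.532).

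LINC00665, ENSG00000232677 on chromosome 19, was called higher by a smaller amount. It lies among zinc finger genes, and its RNA is reported to encode a micropeptide, CIP2A-BP, described in breast cancer cells. It had 386 and 430 reads in the siZBTB7A tables and 346 and 369 reads in the siNTC tables. That was 70.6 and 76.1 CPM in siZBTB7A, against 59.8 and 61.7 CPM in siNTC, with no overlap. The fold was 1.21 (1.091 to 1.34; edgeR adjusted p = 0.0116). Leaving out a table lowers the depth and checks no replicate. At this lower depth the call was lost without the siNTC table numbered 1 (log2 fold 0.25). It was also lost without the siZBTB7A table numbered 2 (log2 fold 0.22). Its coding neighbours ZFP14, at 0.986 (0.792 to 1.23), and ZNF565, at 0.875 (0.570 to 1.34), were not called (edgeR adjusted p = 0.966 and 0.799).

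LINC00294, ENSG00000280798 on chromosome 11, was the only member called lower. Its single annotated transcript is 1 exon of 45.1% GC, and the gene overlaps TCP11L1 on the same strand and CSTF3, which encodes a subunit of the cleavage stimulation factor, on the opposite strand. It had 62 and 59 reads in the siZBTB7A tables and 95 and 100 reads in the siNTC tables. That was 11.3 and 10.4 CPM in siZBTB7A and 16.4 and 16.7 CPM in siNTC, again without overlap. The fold was 0.657 (0.519 to 0.828; edgeR adjusted p = 0.0123). At the lower depth left without any 1 table the call was lost, while the log2 fold lay between -0.67 and -0.55. CSTF3 had 326 and 390 reads in siZBTB7A and 361 and 395 reads in siNTC, a fold of 1.002 (0.904 to 1.11). TCP11L1 stood at 0.884 (0.739 to 1.06), and neither was called (edgeR adjusted p = 0.989 and 0.497). With unstranded counts LINC00294 kept 0.725 of its reads and was not called (log2 fold -0.54, edgeR adjusted p = 0.0859). Whether the lost reads were ones shared with CSTF3 was not tested.

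LINC01578, now named CHASERR and the most abundant member, was not called. In the mouse its counterpart Chaserr lies beside Chd2, a chromatin remodeller gene, and lowers its expression in cis. CHD2 was not analysed here. LINC01578 had 530 and 549 reads in the siZBTB7A tables and 497 and 506 reads in the siNTC tables, or 96.9 and 97.1 CPM in siZBTB7A against 85.9 and 84.6 CPM in siNTC. The siZBTB7A tables were both above the siNTC tables, and the fold was 1.14 (1.044 to 1.24; edgeR adjusted p = 0.0578). With unstranded counts the edgeR adjusted p was 0.0494. FAM174B, the coding gene on its other side and on the opposite strand, was at 1.051 (0.980 to 1.13; edgeR adjusted p = 0.495).

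LINC01311, on chromosome 22 close to the mitochondrial citrate carrier gene SLC25A1, had 34 and 39 reads in siZBTB7A and 21 and 26 reads in siNTC, a fold of 1.64 (1.12 to 2.42). LINC00899, also on chromosome 22, had 33 and 38 reads in siZBTB7A and 22 and 27 reads in siNTC, a fold of 1.53 (1.051 to 2.25). LINC00235 on chromosome 16 had 62 and 71 reads in siZBTB7A and 59 and 49 reads in siNTC, a fold of 1.30 (1.003 to 1.70). Scaled to library size, the tables of these 3 genes did not overlap, and their counting intervals lay above 1. None passed the adjustment over all genes (edgeR adjusted p = 0.0999, 0.176 and 0.257). LINC01003 on chromosome 7 completed the 5 largest folds above 1, at 1.22 (0.913 to 1.65).

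The lowest folds after LINC00294 were in sparsely counted genes. LINC01146 had 31 and 20 reads in siZBTB7A and 41 and 36 reads in siNTC, a fold of 0.701 (0.482 to 1.011). LINC-PINT had 30 and 25 reads in siZBTB7A and 42 and 33 reads in siNTC, a fold of 0.776 (0.538 to 1.11). The tables of both genes did not overlap, but their intervals included 1. LINC00205 stood at 0.7998 (0.570 to 1.12) and LINC00472, described in breast cancer as a marker of better outcome, at 0.806 (0.573 to 1.13). The edgeR adjusted p of these 4 genes ranged from 0.279 for LINC01146 to 0.544 for LINC00472.

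The list of LINC genes linked to p53, Polycomb, chromatin or growth held 15 entries. Of these, 6 were members, 4 had no read (0) and 5 were not matched by a LINC symbol. LINC-PINT, an RNA induced by p53 that binds Polycomb repressive complex 2, is given above. LINC00511, which is reported to bind the Polycomb subunit EZH2, had 32 and 25 reads in siZBTB7A and 22 and 34 reads in siNTC, at 1.077 (0.732 to 1.59). LINC00662 had 140 and 133 reads in siZBTB7A and 142 and 176 reads in siNTC, at 0.909 (0.770 to 1.071). LINC01089, reported as lowered by EGF in mammary cells, had 95 and 63 reads in siZBTB7A and 89 and 89 reads in siNTC, at 0.939 (0.753 to 1.17). In LINC00511, LINC00662, LINC01089 and LINC00472 the scaled values of the 2 groups overlapped. With LINC01578 and LINC00472, 0 of these 6 members were called, where 4.97% of all tested genes were; 2 were above 1 and 4 below 1.

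Of 16 LINC genes named in reports on prostate cancer or androgen response, 2 were members, 5 had 1 to 99 reads, 5 had none (0) and 4 were not matched. LINC00963, described in the passage of prostate cancer cells to androgen independence, had 210 and 179 reads in siZBTB7A and 190 and 208 reads in siNTC. The groups overlapped, and the fold was 1.034 (0.897 to 1.19; edgeR adjusted p = 0.859). LINC00665 is the other member. LINC00920, reported as an ERG target, had 51 reads in all, and LINC00844, reported as androgen-induced, 27, which is under the read minimum. Of 12 entries listed for a known peptide, LINC00665 was the only member, 3 had 1 to 99 reads, 1 had none and 7 were not matched by a LINC symbol. In all 3 lists, 1 member was called, LINC00665, beside 4.97% of all tested genes and 3.20% of those in the members' read range; with so few members the count says nothing particular about the lists.

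The well-counted members without a call limit how far they can have moved between these libraries. LINC01128 had 184 and 201 reads in siZBTB7A and 183 and 194 reads in siNTC, at 1.081 (0.935 to 1.249). LINC02210, a gene from which transcripts run on into the corticotropin-releasing hormone receptor gene CRHR1, had 151 and 154 reads in siZBTB7A and 140 and 184 reads in siNTC, at 0.996 (0.849 to 1.17). LINC00641 had 96 and 99 reads in siZBTB7A and 108 and 111 reads in siNTC, at 0.942 (0.773 to 1.15). In 15 of the 38 members, the called LINC00665 among them, the counting interval lay inside 1.5-fold in both directions. Under 200 reads this held for LINC00339, LINC00909, LINC02381 and LINC01521. For the rest of the 22 members under 200 reads the data leave a wider range: LINC00511, for example, could lie anywhere from 0.732 to 1.59. At an adjusted p under 0.05, edgeR called 0 of these 22, beside 4.97% of all tested genes and 3.20% of those in the members' read range. The exact binomial test and limma-voom also called 0 of the 22. LINC00899 and LINC01311 among them had an unadjusted edgeR p of 0.0207 and 0.00757, and neither passed the adjustment over all genes.

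Levels per exon length put the members in another order than their reads. In CPM per kilobase of annotated exon, over both libraries, LINC01578 stood first at 16.9 (counting interval 16.1 to 17.6), followed by LINC00665 at 9.29 (8.83 to 9.77), LINC00992 at 9.17 (8.04 to 10.4), LINC01687 at 7.06 (6.19 to 8.01) and LINC00674 at 6.79 (5.598 to 8.15). LINC00992 and LINC01687, with 240 reads each, rank high because their annotated exons are short, at 1144 and 1486 bases. LINC02593 was at 6.06 (5.58 to 6.58), LINC02001 at 5.78 (5.01 to 6.64), LINC02387 at 5.29 (4.32 to 6.40), LINC01003 at 4.76 (4.11 to 5.48) and LINC00235 at 4.67 (4.10 to 5.30), which completes the first 10. At the low end stood LINC-PINT at 0.629 (0.526 to 0.747), LINC00649 at 0.524 (0.449 to 0.609) and LINC00511 at 0.179 (0.147 to 0.215), whose annotated exons add up to 27605 bases over 106 transcripts. Of the 37 neighbouring pairs in this order, 4 had intervals that did not overlap: LINC01578 above LINC00665, LINC00992 above LINC01687, LINC02210 above LINC00899 and LINC00649 above LINC00511. The other 33 pairs overlapped. The exon lengths are those of GENCODE 29, and an RNA that uses only part of them would have a higher level than given here.

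**Figure D3:**
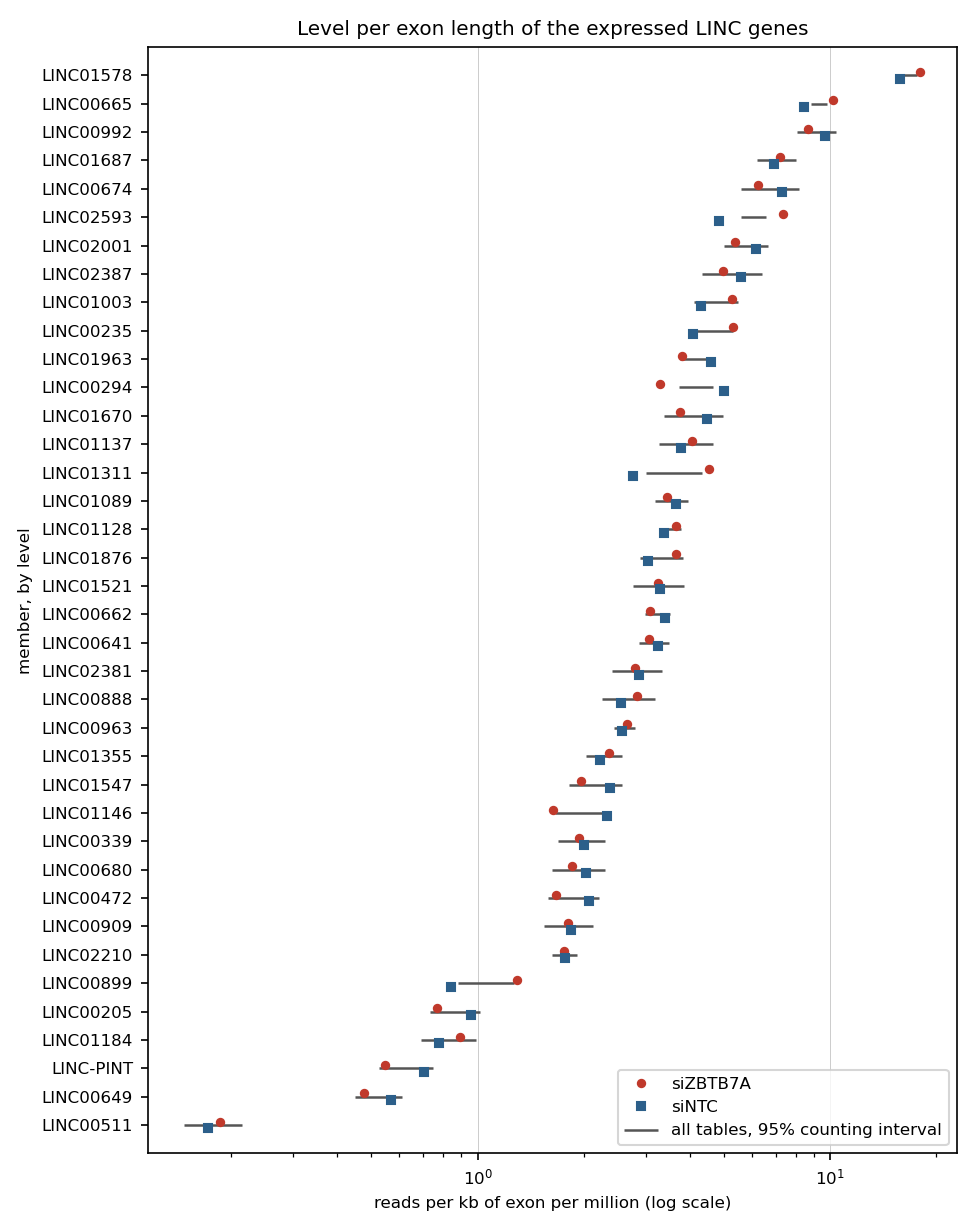
Level of each expressed LINC gene in CPM per kilobase of annotated exon (log axis), ordered by the level over both libraries; circles are siZBTB7A, squares siNTC, and lines the 95% counting interval over all 4 tables. LINC01578 stands apart at 16.9 and LINC00511 at 0.179, with most neighbours in between overlapping.

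By structure the members were mixed. The longest transcript had 1 exon in 11 members and 2 or more in 27. The single-exon members had a median fold of 1.077 with 1 called higher and 1 lower, and the others a median of 0.939 with 1 called higher. Over all tested genes 4.97% were called, and so few calls do not tell these 2 groups apart. Transcript GC content ran from 35.6% to 63.1% with a median of 47.2%. The 9 members at 55% GC or more had a median fold of 1.075, with LINC02593 called higher, and the 29 below it had a median of 0.942, with LINC00665 called higher and LINC00294 lower. Over all tested genes the same split gave medians of 1.039 over 3676 genes (137 called higher and 29 lower) and 0.986 over 9112 genes (152 higher and 320 lower). Across the 38 members the correlation of GC content with the log2 fold was 0.31 (rank correlation 0.17), and across 12788 tested genes 0.19. The points share 2 libraries, and the part of GC content in any member's fold was not tested. After correction for GC content and transcript length, LINC02593, LINC00665 and LINC00294 were all still called. The log2 fold of LINC02593 was then 0.54, where the main fit gave 0.60 (corrected edgeR adjusted p = 0.00209). That of LINC00665 was 0.24, where the main fit gave 0.27, and its corrected edgeR adjusted p of 0.0460 was close to the threshold. LINC00294 was at -0.61 in both fits (corrected edgeR adjusted p = 0.0181).

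By GENCODE 29, 10 members start within 1 kb of an opposite-strand coding gene's start, 3 more overlap a coding gene on the opposite strand, and 25 are in neither group. Head-to-head members were grouped first, and some of them, such as LINC-PINT with MKLN1, also overlap a coding gene. The 10 head-to-head members had a median fold of 0.959 and 0 calls. The 3 further members that overlap an opposite-strand coding gene had 0.874 and 1 call, and the 25 others 1.034 and 2 calls. With 4.97% of all tested genes called, groups this small are not told apart by these counts. A coding neighbour within 10 kb with at least 100 reads was found for 17 members, and 12 of the 17 pairs had folds on the same side of 1. The correlation of log2 folds over these 17 pairs was 0.32 (rank correlation 0.35), as a description of 2 libraries. The 1 called neighbour of the 17, beside 4.97% called over all tested genes, was MKLN1, which encodes muskelin and starts head to head with LINC-PINT. MKLN1 had 875 and 898 reads in siZBTB7A and 1031 and 1056 reads in siNTC, a fold of 0.899 (0.843 to 0.958; edgeR adjusted p = 0.0274), on the same side of 1 as LINC-PINT. SLC25A1, beside LINC01311, was at 1.11 (1.035 to 1.19; edgeR adjusted p = 0.0590). LINC00235 and its head-to-head partner CAPN15 lay on opposite sides, at 1.30 and 0.924.

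The 10 head-to-head members were LINC01089, LINC00235, LINC00649, LINC00909, LINC00205, LINC01521, LINC01547, LINC-PINT, LINC01137 and LINC01184, and their folds ran from 0.776 to 1.30. LINC01137 had 32 and 31 reads in siZBTB7A and 27 and 35 reads in siNTC, at 1.075 (0.745 to 1.55), with overlap. Its partner ZC3H12A, which encodes the RNase regnase-1, had 194 summed reads in siZBTB7A and 150 in siNTC, at 1.37 (1.10 to 1.71), and was not called (edgeR adjusted p = 0.0799). LINC02381 overlaps the DNA glycosylase gene SMUG1 on the opposite strand and was at 0.977 (0.699 to 1.36).

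Among the members without a coding gene on them, LINC01963 had 62 and 71 reads in siZBTB7A and 93 and 77 reads in siNTC, at 0.828 (0.655 to 1.045). Its tables did not overlap once scaled, but the interval included 1. LINC01876 had 50 and 60 reads in siZBTB7A and 34 and 63 reads in siNTC, at 1.2 (0.905 to 1.59), and its siNTC tables differed more than the groups did. LINC01355 at 1.066, LINC00339 at 0.963, LINC00680 at 0.909 and LINC00888 at 1.11 all had intervals that included 1. LINC00674 and LINC01670, near the read limit, were at 0.857 (0.580 to 1.26) and 0.843 (0.562 to 1.26).

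**Figure D4:**
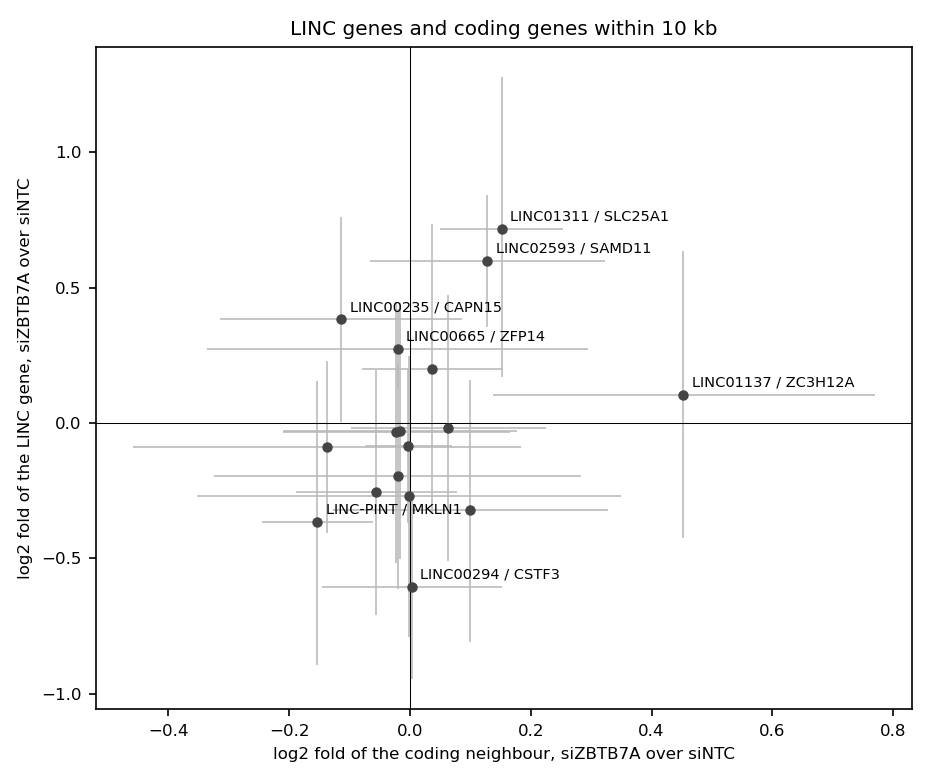
Log2 fold (siZBTB7A over siNTC) of 17 expressed LINC genes on the vertical axis against that of the coding gene within 10 kb on the horizontal axis; lines are 95% counting intervals. LINC00294 and LINC02593 lie far from 0 on the vertical axis while CSTF3 and SAMD11 have intervals that include 0.

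Opposite-strand reads were few in nearly all members. The rule counted main-strand reads only and so favours genes read on the annotated strand. The shares given here are therefore a description and no test of the annotation. Reads on the opposite strand made up 2.81% of the members' reads in siZBTB7A and 3.17% in siNTC. Over all gene rows, which were not chosen by that rule, they made up 3.77% and 3.86%. In 16 members no opposite-strand read was counted, and in 32 the share was under 5%. The exceptions above 10% were LINC00649 at 32.0%, which lies over the ATP synthase subunit gene ATP5PO, LINC00899 at 24.5% and LINC01089 at 19.2%, which starts head to head with the histone methyltransferase gene SETD1B. For LINC02593 the opposite strand had 20 reads in siZBTB7A and 9 in siNTC, or 5.57% and 3.66% of its reads. LINC00674, LINC00680 and LINC00888 are annotated as pseudogenes made by gene duplication, so reads shared with their parent genes are not counted and their totals are uncertain.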

How the data were processed

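RNA-seq of VCaP cells gave 1 table of raw read counts per gene for each of 4 samples, deposited by the authors without normalization. The tables have the layout of STAR gene counts, and per the submitters' processing notes STAR 2.4.2a and the builds hg19 and GRCh37 were used. Which annotation the authors counted on is not stated in the labels. The kit keeps strand, per the labels' protocols, and column 4, whose gene reads exceeded those of the opposite strand by 24.9 to 25.5 times, was used. The 4 rows that name no gene (50.8% to 51.2% of reads) were left out. GENCODE 29, on another build, named 55698 identifiers.

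edgeR 4.0.16 in R 4.3.3 (quasi-likelihood test, robust, TMM, filterByExpr, group as the only term) was fitted to all genes, with Benjamini-Hochberg adjustment. The 4 tables entered as separate columns, so the spread in the fit is that between tables that agree within read sampling, and the test compares 2 libraries. Folds are from summed tables with exact 95% intervals, which cover counting error only. The fit was tested on simulated data.

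Members and lists were chosen with earlier results of these data known. Named are all called members, the 10 highest per kilobase, the 5 highest and 5 lowest folds, those nearest the read limit and members of the function lists. Other genes, such as those with many reads, were named after their values were seen. Alternatives were DESeq2 1.42.0 and its size factors, limma 3.58.1 (voom), an exact binomial test, an assumed replicate CV of 10%, other filters, unstranded counts, a replicate block, a GC and length correction, leaving out each table, and read minimums of 50 and 200. Python 3.11.15 and scipy 1.17.1 did the rest.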

Additional observations from a re-analysis of the deposited data

How the results depend on the processing

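The 3 calls among the members (2 higher, 1 lower) were made again with DESeq2 size factors, limma-voom, the exact binomial test, no low-count filter, a filter at a mean of 1 CPM and the GC and length correction. Read minimums of 50 and 200 also gave 3 calls. They change only which genes count as members and not the fit, so these calls could not be lost there. The numbers 1 and 2 pair nothing that the labels state, and tables with the same number had deviations with a correlation of -0.0232 (7461 genes); with the replicate block 3 members and 654 genes were called. Unstranded counts also called 3, all higher, with LINC01578 in and LINC00294 out. DESeq2 called 0 members and 105 genes and gave no adjusted p for 36 members. With an assumed replicate CV of 10%, 0 members and 1 gene were called. The GC and length correction called 357 genes, where the main fit called 639. Leaving out a table, which lowers the depth, called 1 to 2 members and 303 to 373 genes. The members' share of gene reads at a minimum of 50 was 0.0611% in siZBTB7A and 0.0605% in siNTC, and at 200 0.0425% and 0.0406%, since other genes are counted. The members' median log2 fold of -0.03 was recomputed with DESeq2 size factors, the GC and length correction, unstranded counts, both read minimums and each table left out. It lay between -0.09 and 0.05 in these, and above 0 at the minimum of 200 alone. Of 22 named members, 8, none of them called, changed sign without 1 table, where the log2 fold ran from -0.34 to 0.058 in LINC00992, -0.13 to 0.27 in LINC01687, -0.38 to 0.027 in LINC02387, -0.61 to 0.057 in LINC00472, -0.15 to 0.43 in LINC00511, -0.094 to 0.18 in LINC00963, -0.26 to 0.0010 in LINC00662 and -0.44 to 0.20 in LINC01089; the cause was not tested.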

Other observations

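Of the LINC genes under the read minimum, 32 were abundant enough to test and 1 was called, LINC01134, named here after its values were seen. It had 23 and 11 reads in the siZBTB7A tables and 7 and 7 reads in the siNTC tables, a fold of 2.57 (1.34 to 5.18; edgeR adjusted p = 0.0478). The 2 siZBTB7A tables differ more from each other than they do in LINC02593, and 14 reads in siNTC leave the fold wide.

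LINC00472 and its nearest coding gene OGFRL1, which lies beyond 10 kb, stood on opposite sides of 1. OGFRL1 had 124 reads in siZBTB7A and 84 reads in siNTC, at 1.56 (1.17 to 2.09; edgeR adjusted p = 0.0402), where LINC00472 was at 0.806 (0.573 to 1.13). The difference between the 2 genes was not tested.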
